A study of Mus musculus with 6 samples.

Results

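The genes described here encode the machinery that attaches the ubiquitin-like protein ISG15 to other proteins and takes it off again, and they were followed across 3 mouse embryonic stem cell lines. The 6 genes named for this purpose were Isg15, Uba7, Ube2l6, Herc6, Trim25 and Usp18. A gene was measured where a probe set of the array carried its symbol and no other, and where several did, the brightest of them by its mean of 6 arrays was to be taken. The members were thus chosen by symbol, and by mean intensity over all arrays for the choice of probe set. By that rule 5 of the 6 genes were measured, among 19938 genes in all, and each of the 5 had 1 such probe set, so that the choice by mean level decided nothing. The probe set that lists Isg15 also lists the pseudogene Gm9706 and was assigned to neither gene.

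The lines were ♂M-1, ♂M-3 and ZM-1, described in the labels as chromosome transfer embryonic stem cells, with 2 biological repeats of each and 6 arrays in total. All 3 lines grew on a gelatin coat in the presence of PD0325901, which blocks MEK, CHIR99021, which blocks GSK3β, and LIF. By its title the study asked about unequal reprogramming capacity between the pronuclei of the zygote, and expression was compared between the lines. Each group was a single line, so a difference between kinds of line and one between individual lines cannot be told apart, and neither strain nor sex is stated for them in the labels.

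ISG15 is built of tandem ubiquitin-like domains and is joined to its targets by a cascade that parallels that of ubiquitin. An activating enzyme (E1) charges it, a conjugating enzyme (E2) receives it, and a ligase (E3) passes it to the target. A dedicated protease reverses the step. The genes of the cascade are known as targets of type I interferon, whose signal ends at a DNA element, the interferon-stimulated response element (ISRE). Embryonic stem cells are known for a weak interferon response compared with differentiated cells.

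The sequence before the transcription start is shown for the modifier itself, which holds matches to that element, and for Ube2l6, the measured member with the largest difference between the ♂M lines. Both are the 250 bases before the start in the RefSeq annotation of GRCm38.p6, written 5′ to 3′ on the gene's own strand, with matches to the ISRE core (GAAA, any 2 bases, GAAA) in capitals. The Isg15 window is chr4:156200819-156201068 on the minus strand, and the Ube2l6 window is chr2:84798578-84798827 on the plus strand.
Isg15: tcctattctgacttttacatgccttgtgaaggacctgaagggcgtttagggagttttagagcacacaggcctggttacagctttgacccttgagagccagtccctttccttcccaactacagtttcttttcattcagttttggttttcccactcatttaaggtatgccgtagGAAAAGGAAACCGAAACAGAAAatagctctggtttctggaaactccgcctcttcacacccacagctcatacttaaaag
Ube2l6: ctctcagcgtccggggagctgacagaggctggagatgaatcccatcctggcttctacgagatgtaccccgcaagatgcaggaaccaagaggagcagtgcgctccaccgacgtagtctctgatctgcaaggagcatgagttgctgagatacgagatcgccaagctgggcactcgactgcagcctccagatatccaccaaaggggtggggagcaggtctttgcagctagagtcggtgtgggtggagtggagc
The capitals in the Isg15 window are 3 matches, each overlapping the next, that begin 78, 72 and 66 bases before the start. The motif was searched on both strands (TTTC, any 2 bases, TTTC on the other), and 2.98% of 32851 windows of 250 bases held at least 1 match. A promoter sequence was found for 5 of the 6 genes, that of Usp18 not among them. Over the whole windows of 300 bases, which add 50 after the start, the ISRE core was found in 1 of the 5 and in 3.44% of all windows. The core of the interferon-gamma activated site, TTCNNNGAA, which reads the same on both strands and was searched separately, was found in 0 of the 5 and in 8.3% of all windows. A match describes letters and not a bound site.

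Values are intensities on a linear scale as the authors deposited them, in array units. The arrays had similar distributions, with medians over all probe sets between 67.2 and 71.3 and lower quartiles between 23.8 and 25.1. Over the 19938 genes alone the medians lay between 92.7 and 95.6 and the lower quartiles between 31.5 and 33.7. Background readings were not used here, so it is not known at which intensity a gene counts as expressed. The 8 embryonic stem cell markers summed to 19643 to 20165 in ♂M-1 and 21851 to 22627 in ♂M-3, against 19751 to 19847 in ZM-1, and 0 of them lay below the lower quartile in any array. Differences between lines are log2 of the intensity plus 1 from 1 linear model of all 6 arrays (limma), with p-values adjusted over the 19938 genes by the Benjamini-Hochberg method and a threshold of 0.05. These are bulk samples, in which fewer cells of a type and less RNA per cell cannot be told apart. The p-values rest on the spread between repeats, pooled over the 3 lines and drawn towards a prior from all genes. That spread had 3 residual and 6.01 prior degrees of freedom, so it is not the spread of a single line.

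Uba7 is the E1 that activates ISG15. Its intensity was 54.5 and 54.2 in ♂M-1 and 65.4 and 59.0 in ♂M-3, against 71.8 and 72.0 in ZM-1. The arrays of the 3 lines did not overlap, with ♂M-1 lowest and ZM-1 highest. The mean was 54.4 ± 0.176 in ♂M-1 and 62.2 ± 4.55 in ♂M-3, against 71.9 ± 0.120 in ZM-1 (SD, n = 2 each). Uba7 was 1.32-fold lower in ♂M-1 relative to ZM-1 (log2 difference -0.40 ± 0.08 SE, adjusted p = 0.0260). Without either ♂M-1 array or either ZM-1 array it was no longer called, although the log2 difference hardly moved. It was -0.401 and -0.394 without ♂M-1 replicate 1 and 2, and -0.399 and -0.396 without ZM-1 replicate 1 and 2. In ♂M-3 the log2 difference from ZM-1 was -0.21 (95% interval -0.39 to -0.03, adjusted p = 0.113). Among all genes it stood at percentile 38.0 in ♂M-1 and 41.4 in ♂M-3, against 43.9 in ZM-1, below the median gene of every line.

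Ube2l6, the E2 that carries ISG15 and is known as UBCH8, separated the ♂M lines from each other more than any other measured member. It measured 224 and 208 in ♂M-1 and 61.9 and 70.7 in ♂M-3, against 313 and 281 in ZM-1. Both ♂M-3 arrays were far below the other 4, and the ♂M-1 arrays lay between them and ZM-1 without overlap. The mean was 216 ± 11.0 in ♂M-1 and 66.3 ± 6.19 in ♂M-3, against 297 ± 22.8 in ZM-1 (SD, n = 2 each). Ube2l6 was 4.43-fold lower in ♂M-3 relative to ZM-1 (log2 difference -2.15 ± 0.09 SE, adjusted p = 3.47e-06) and 3.23-fold higher in ♂M-1 relative to ♂M-3 (log2 difference 1.69 ± 0.09 SE, adjusted p = 5.22e-05). Among all genes its difference between ♂M-3 and ZM-1 ranked 16 by size, and that between ♂M-1 and ♂M-3 ranked 14. Against ZM-1, ♂M-1 was 1.37-fold lower (log2 difference -0.46 ± 0.09 SE, adjusted p = 0.0313). This call did not hold without ♂M-1 replicate 1 (log2 difference -0.51) or 2 (-0.40) nor without ZM-1 replicate 1 (-0.38).

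Herc6, a HECT-type ligase that serves as the main ISG15 E3 in the mouse, was in the lower part of the measured range. Its intensity was 33.4 and 38.8 in ♂M-1 and 34.5 and 31.3 in ♂M-3, against 60.5 and 44.3 in ZM-1. The ♂M-1 and ♂M-3 arrays overlapped each other and all lay below both ZM-1 arrays, which stood further apart from each other than the repeats of either ♂M line. The mean was 36.1 ± 3.82 in ♂M-1 and 32.9 ± 2.28 in ♂M-3, against 52.4 ± 11.5 in ZM-1 (SD, n = 2 each). Among all genes it stood at percentile 27.6 in ♂M-1 and 25.6 in ♂M-3, against 35.7 in ZM-1. Herc6 was 1.56-fold lower in ♂M-3 relative to ZM-1 (log2 difference -0.64 ± 0.14 SE, adjusted p = 0.0153), which did not hold without ♂M-3 replicate 2 (adjusted p = 0.0985) or with all probe sets tested (0.0818). For ♂M-1 against ZM-1 the log2 difference was -0.51 (95% interval -0.83 to -0.20, adjusted p = 0.0789), and with ZM-1 replicate 2 left out it was -0.73 and passed (adjusted p = 0.0137).

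Trim25, a RING-type ligase that acts on both ubiquitin and ISG15 and is known for activating the RNA sensor RIG-I, was in the upper part of the measured range in every line. It measured 739 and 643 in ♂M-1 and 766 and 633 in ♂M-3, against 878 and 848 in ZM-1. All 4 ♂M arrays lay below both ZM-1 arrays, while those of ♂M-1 and ♂M-3 overlapped. The mean was 691 ± 67.5 in ♂M-1 and 699.5 ± 94.0 in ♂M-3, against 863 ± 20.9 in ZM-1 (SD, n = 2 each), and among all genes it stood between percentiles 87.8 and 91.3. The difference from ZM-1 did not pass the test in ♂M-1 (log2 difference -0.32, 95% interval -0.57 to -0.08, adjusted p = 0.138), but passed with an intensity trend in the prior (0.0353). In ♂M-3 it was -0.31 (95% interval -0.55 to -0.06, adjusted p = 0.0867), and it passed after quantile normalization (-0.38, adjusted p = 0.0470), among genes above the 50th percentile (0.0363) and with the intensity trend (0.0214).

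Usp18 encodes the deconjugating protease of the system, which also binds the interferon receptor chain IFNAR2 to dampen signalling, and it differed most. It measured 77.5 and 85.6 in ♂M-1 and 39.3 and 45.1 in ♂M-3, against 699.6 and 602 in ZM-1. No arrays of different lines overlapped, and both ZM-1 arrays were several-fold above every ♂M array. The mean was 81.5 ± 5.72 in ♂M-1 and 42.2 ± 4.08 in ♂M-3, against 651 ± 68.8 in ZM-1 (SD, n = 2 each). Among all genes Usp18 stood at percentile 47.2 in ♂M-1 and 31.7 in ♂M-3, against 87.6 in ZM-1. It was 7.89-fold lower in ♂M-1 (log2 difference -2.98 ± 0.10 SE, adjusted p = 1.85e-06) and 15.1-fold lower in ♂M-3 (log2 difference -3.92 ± 0.10 SE, adjusted p = 3.21e-07) relative to ZM-1. By size these differences ranked 5 and 2 among 19938 genes. Between the ♂M lines, Usp18 was 1.91-fold higher in ♂M-1 (log2 difference 0.94 ± 0.10 SE, adjusted p = 0.00121).

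**Figure D1:**
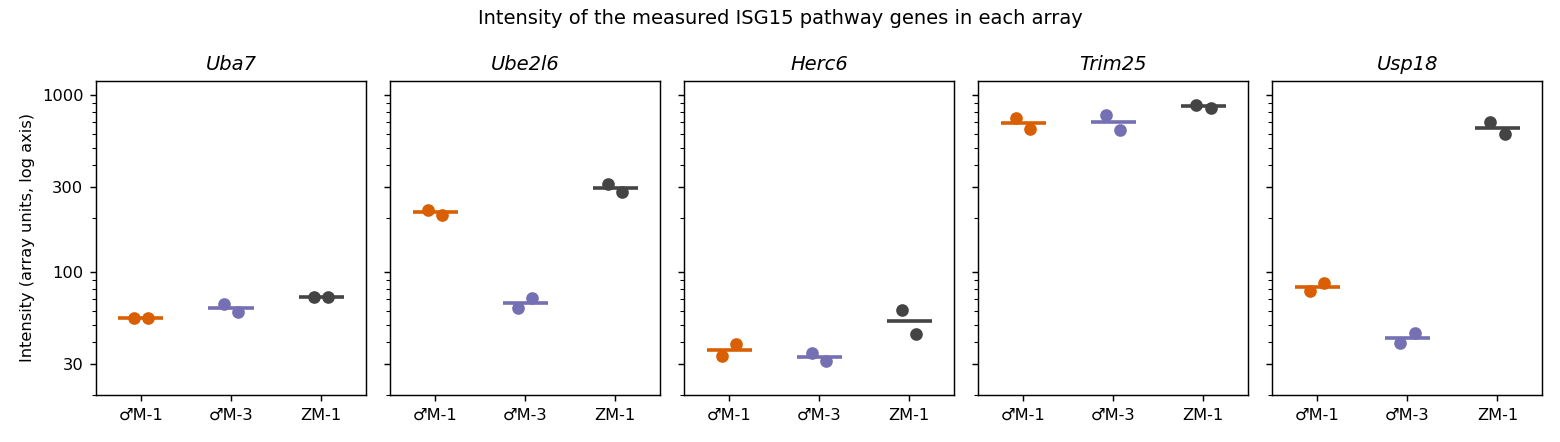
Intensity of the 5 measured genes in each array on a log axis, with the lines ♂M-1, ♂M-3 and ZM-1 from left to right in every panel. Each point is 1 array and the bar is the mean of the 2 repeats of a line. Usp18 shows the widest gap between ♂M and ZM-1 arrays, and Ube2l6 is lowest in ♂M-3, at 61.9 and 70.7.

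Counted by comparison, 3 of the 5 measured genes were lower in ♂M-1 relative to ZM-1 and 0 were higher, namely Uba7, Ube2l6 and Usp18. The genes were chosen with such results known, so these counts describe them and support nothing further. Of all genes, 4.41% were called in that comparison, 2.53% lower and 1.89% higher, which are 504 and 376 genes, and after median centring 56.5% of the called genes were higher in place of 42.7%. The median log2 difference of the 5 genes was -0.46, against -0.01 over all genes. The count of 3 became 1, leaving Usp18, without ♂M-1 replicate 1 or 2 or ZM-1 replicate 1. The 880 genes called in all became 367 without ♂M-1 replicate 1, 234 without ♂M-1 replicate 2 and 576 without ZM-1 replicate 2.

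In ♂M-3 against ZM-1, 3 of the 5 were lower and 0 higher, namely Ube2l6, Herc6 and Usp18. Over all genes 15.9% were called, 7.2% lower and 8.66% higher, and the median log2 difference of the 5 genes was -0.64 against 0.00 over all genes. This count became 2 without ♂M-3 replicate 2. The 3162 genes called in all became 1361 without ♂M-3 replicate 1, 1302 without ♂M-3 replicate 2 and 2077 without ZM-1 replicate 2. The comparisons with ZM-1 share its 2 arrays and are not independent of each other. In both of them, 5 of 5 genes had arrays below those of ZM-1 without overlap, where 25.9% of all genes did so in ♂M-1 and 27.4% in ♂M-3. A further 23% of all genes in ♂M-1 and 30.1% in ♂M-3 lay above ZM-1 without overlap, which makes 48.9% and 57.5% in either direction.

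Between the ♂M lines, 2 of the 5 genes were higher in ♂M-1 relative to ♂M-3 and 0 were lower, namely Ube2l6 and Usp18. Over all genes 6.54% were called, 3.22% higher and 3.32% lower, and the median log2 difference was 0.13 for the 5 genes and -0.02 over all genes. The count of 2 was the same without any 1 of the 6 arrays, although the 1303 genes called in all became 761 without ♂M-1 replicate 1, 357 without ♂M-1 replicate 2, 468 without ♂M-3 replicate 1 and 419 without ♂M-3 replicate 2. The other members had log2 differences of -0.19 for Uba7 (95% interval -0.37 to -0.01, adjusted p = 0.225), 0.13 for Herc6 (-0.18 to 0.45, adjusted p = 0.695) and -0.01 for Trim25 (-0.26 to 0.23, adjusted p = 0.967). Arrays did not overlap for 3 of the 5, of which 2 were higher and Uba7 was lower in ♂M-1, where 50.5% of all genes did not, 21.6% higher and 28.9% lower. This comparison is also the test of whether the ♂M lines differed from ZM-1 by different amounts.

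**Figure D2:**
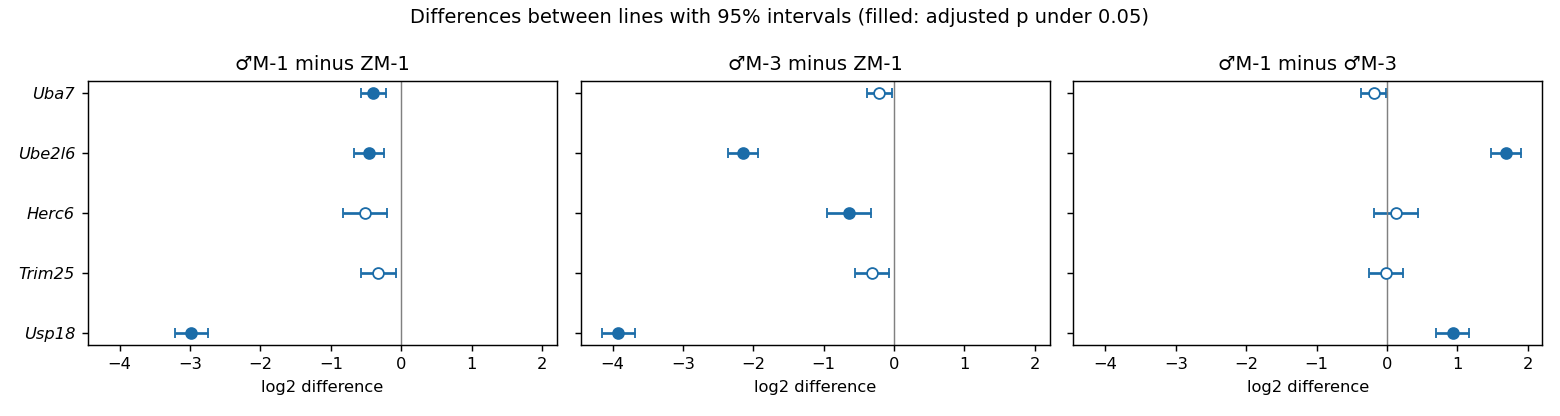
Log2 differences of the 5 measured genes in the comparisons ♂M-1 minus ZM-1, ♂M-3 minus ZM-1 and ♂M-1 minus ♂M-3, with 95% intervals that are not adjusted for the number of genes. Filled points passed an adjusted p of 0.05, and some intervals of open points exclude 0. Usp18 lies far below 0 against ZM-1 in both ♂M lines, at -2.98 and -3.92, and Ube2l6 does so in ♂M-3, at -2.15.

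The 5 genes did not vary to the same extent. The standard deviation of log2 values over the 6 arrays was 1.83 for Usp18 and 1.02 for Ube2l6, at percentiles 99.98 and 99.9 of all genes. It was 0.34 for Herc6, 0.20 for Trim25 and 0.18 for Uba7, at percentiles 97.0, 85.3 and 82.7. The order of the lines differed as well. Usp18, Ube2l6 and Herc6 had their lowest mean in ♂M-3, Uba7 and Trim25 in ♂M-1, but for Herc6 and Trim25 the arrays of the ♂M lines overlapped.

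The genes whose pattern was most like that of Usp18 were Oasl2, Irgm1 and Ifi27. Likeness was the root mean square difference of centred log2 values over the 6 arrays, among 9670 named genes with a mean above that of the median gene, and since it chose these genes no test is given. Oasl2, an oligoadenylate synthetase-like antiviral protein, was nearest, at 0.14 log2 units. It measured 85.1 and 84.3 in ♂M-1 and 53.0 and 55.6 in ♂M-3, against 797 and 672 in ZM-1. Next came the immunity-related GTPase Irgm1 at 0.34 and the interferon-inducible Ifi27 at 0.40. Irgm1 was at 92.4 and 113 in ♂M-1 and 26.1 and 39.7 in ♂M-3, against 696 and 755 in ZM-1. Ifi27 averaged 135 ± 6.02 in ♂M-1 and 80.4 ± 6.14 in ♂M-3, against 641 ± 65.0 in ZM-1 (SD, n = 2 each).

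A mean profile of the 5 measured genes was taken from centred log2 values without scaling. The genes that varied most, Usp18 and Ube2l6 (SD 1.83 and 1.02), therefore weigh most in it, and Herc6, Trim25 and Uba7 little. Nearest to this profile was Gbp4, an interferon-induced guanylate-binding GTPase, at 0.10 log2 units. It averaged 79.2 ± 10.7 in ♂M-1 and 55.7 ± 2.06 in ♂M-3, against 164 ± 6.10 in ZM-1 (SD, n = 2 each). The MHC class I gene H2-Q4 and the virus-tethering protein Bst2 were each also at 0.10, the transporter Slc43a3 at 0.11 and Susd4, a regulator of complement, at 0.12. H2-Q4 averaged 237 ± 6.54 in ♂M-1 and 175 ± 0.756 in ♂M-3, against 429.6 ± 19.1 in ZM-1 (SD, n = 2 each). Bst2 averaged 202 ± 17.3 in ♂M-1 and 159 ± 7.34 in ♂M-3, against 393 ± 57.4 in ZM-1 (SD, n = 2 each).

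The families to which these enzymes belong were counted in the same way. Of 48 other Usp genes, which encode ubiquitin-specific proteases, 1 was higher and 1 lower in ♂M-1 relative to ZM-1, and 6 were higher and 3 lower in ♂M-3. These calls made up 4.17% of the family in ♂M-1 and 18.8% in ♂M-3, near the 4.41% and 15.9% of all genes. The 9 in ♂M-3 became 2 without ♂M-3 replicate 1, 4 without ♂M-3 replicate 2 and 5 without ZM-1 replicate 2. The family's median log2 difference was 0.04 in both comparisons. Usp51 was 1.89-fold higher in ♂M-1 and 2.88-fold higher in ♂M-3 relative to ZM-1, with means of 78.6 ± 6.81 in ♂M-1 and 120 ± 6.46 in ♂M-3, against 41.1 ± 2.42 in ZM-1 (SD, n = 2 each). Usp26, a germ cell gene, measured 17.4 and 22.1 in ♂M-1 and 16.9 and 15.7 in ♂M-3, against 50.5 and 39.1 in ZM-1. Its ♂M arrays were all below the lower quartile of the probe sets, so no fold is given for it (adjusted p = 0.00248 in ♂M-1 and 2.97e-04 in ♂M-3).

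Of 34 other genes with Ube2 symbols, most encode E2 enzymes of ubiquitin and its relatives. In either ♂M line 0 of the 34 were called lower relative to ZM-1, where 2.53% of all genes were in ♂M-1 and 7.2% in ♂M-3. Calls in either direction made up 8.82% of the family in ♂M-1 and 20.6% in ♂M-3, against 4.41% and 15.9% of all genes. In ♂M-1, 3 were higher relative to ZM-1, but that count was 0 without either ♂M-1 array or either ZM-1 array and 1 without either ♂M-3 array. In ♂M-3, 7 were higher, with 3 without either ♂M-3 array or ZM-1 replicate 2 and 4 without ZM-1 replicate 1. Ube2s, which extends ubiquitin chains for the anaphase-promoting complex, averaged 2109 ± 67.7 in ♂M-3 and 1299 ± 20.9 in ZM-1 (SD, n = 2 each), 1.62-fold higher (adjusted p = 4.27e-04). Of the 4 other Herc genes, 0 passed the limma test in any comparison, with 3 at an unadjusted p under 0.05 in ♂M-3 against ZM-1 and 0 in the other comparisons, and up to 2 were called in ♂M-3 under other settings. Among 7 measured E1 enzymes of ubiquitin and its relatives, Uba1y, a Y-linked ubiquitin E1, was the one called. It averaged 46.8 ± 0.743 in ♂M-1 and 103 ± 1.78 in ♂M-3, against 67.2 ± 6.08 in ZM-1 (SD, n = 2 each), lower in ♂M-1 (adjusted p = 0.0118) and higher in ♂M-3 (adjusted p = 0.00192), and the ♂M-1 call did not hold without ♂M-1 replicate 1 (0.0811) or 2 (0.0832).

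For the next lists the share of all genes called against ZM-1 was again 4.41% in ♂M-1 and 15.9% in ♂M-3. Of 11 measured ubiquitin-like proteins, 0 were called in ♂M-1, with 2 at an unadjusted p under 0.05, and Nedd8 was called in ♂M-3. Nedd8, the modifier of cullins, averaged 451 ± 8.14 in ♂M-3 and 352 ± 4.82 in ZM-1 (SD, n = 2 each; adjusted p = 0.0121), which did not hold without ♂M-3 replicate 1 (0.0608) or 2 (0.0868). Of 13 other genes tied to ISG15, such as the ligase Arih1 and proteases reported to cleave ISG15, 0 were called in ♂M-1 by limma, with 3 at an unadjusted p under 0.05, and 1, Itgb2, was called without ZM-1 replicate 1. In ♂M-3, 3 were called: Itgb2, a chain of the integrin LFA-1 that binds extracellular ISG15, and Ifnar2 were lower, and the chaperone Bag6 was higher. That count became 1 without either ♂M-1 array and 0 without either ♂M-3 array or ZM-1 replicate 2.

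Among the called genes of the Trim family, more were lower than higher relative to ZM-1. Of 57 other Trim genes, 0 were higher and 5 lower in ♂M-1 relative to ZM-1, and 3 were higher and 9 lower in ♂M-3. The first count became 3 without ♂M-1 replicate 2 and 8 without ZM-1 replicate 2, and the second total of 12 became 6 without ♂M-3 replicate 1. With all 6 arrays, the calls made up 8.77% of the family in ♂M-1 and 21.1% in ♂M-3, where 4.41% and 15.9% of all genes were called. Calls of lower genes made up 2.53% of all genes in ♂M-1 and 7.2% in ♂M-3. The family's median log2 difference was -0.06 in ♂M-1 and -0.05 in ♂M-3. Trim14, an adaptor of antiviral signalling, measured 57.1 and 61.0 in ♂M-1 and 46.7 and 44.6 in ♂M-3, against 106 and 93.8 in ZM-1. It stood 1.68-fold lower in ♂M-1 (adjusted p = 0.00203) and 2.16-fold lower in ♂M-3 (adjusted p = 9.84e-05) relative to ZM-1. Trim30a and Trim12a were called lower in both ♂M lines, but their ♂M-3 means of 20.9 ± 2.86 and 13.7 ± 2.35 (SD, n = 2 each) lay below the lower quartile of the probe sets. Trim30a averaged 26.7 ± 1.62 in ♂M-1 and 85.7 ± 6.11 in ZM-1, and Trim12a 39.3 ± 9.47 in ♂M-1 and 97.9 ± 17.4 in ZM-1 (SD, n = 2 each).

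Most of the other interferon-stimulated genes were lower in the ♂M lines relative to ZM-1. Of 32 measured genes of that list, 27 were lower and 0 higher in ♂M-1 relative to ZM-1, with a median log2 difference of -0.83, and 29 were lower and 0 higher in ♂M-3, with a median of -1.01. Between the ♂M lines 9 were higher and 1 lower in ♂M-1, a total of 10 that became 4 without ♂M-1 replicate 2, 6 without ♂M-3 replicate 1 and 5 without ♂M-3 replicate 2. The list was drawn up with earlier results of these data known, so its direction is not independent support. It shares Irf7 with the list of interferon signalling and Trim21 with the Trim family, so these counts are not separate. Over all genes 2.53% were called lower in ♂M-1 and 7.2% in ♂M-3, against 84.4% and 90.6% of the interferon-stimulated list. Between the ♂M lines 31.2% of that list was called, against 6.54% of all genes. Of 14 measured genes of interferon signalling, 3 (21.4%) were lower in ♂M-1 and 4 (28.6%) in ♂M-3, and 0 were higher in either. The count in ♂M-3 became 2 without ♂M-3 replicate 1.

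Within the signalling list, the transcription factor Irf7, which is both a target and an amplifier of the pathway, averaged 49.9 ± 0.115 in ♂M-1 and 38.7 ± 1.87 in ♂M-3, against 143 ± 25.4 in ZM-1 (SD, n = 2 each). It stood 2.80-fold lower in ♂M-1 (adjusted p = 1.87e-04) and 3.59-fold lower in ♂M-3 (adjusted p = 2.87e-05). Irf9, a DNA-binding factor of the interferon response, averaged 210 ± 0.978 in ♂M-1 and 170 ± 18.7 in ♂M-3, against 333 ± 6.65 in ZM-1 (SD, n = 2 each), and its call in ♂M-1 (adjusted p = 0.00450) did not hold without ♂M-1 replicate 2 (0.0528). Stat2, to which USP18 binds, followed another order. It measured 275 and 245 in ♂M-1 and 376 and 384 in ♂M-3, against 417 and 411 in ZM-1, with the ♂M-1 arrays lowest and no overlap between lines. Stat2 was 1.59-fold lower in ♂M-1 relative to ZM-1 (adjusted p = 0.00259) and 1.46-fold lower in ♂M-1 relative to ♂M-3 (log2 difference -0.55, adjusted p = 0.00529), and this last call did not hold without ♂M-1 replicate 2 (0.0596) or ♂M-3 replicate 2 (0.0512). For ♂M-3 against ZM-1 its log2 difference was -0.12 (95% interval -0.31 to 0.06, adjusted p = 0.357).

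For the 16 measured genes of proteins reported to carry ISG15, the median log2 difference from ZM-1 was 0.01 in ♂M-1 and 0.10 in ♂M-3. Of the 16, 4 were lower in ♂M-1, where 2.53% of all genes were, namely the interferon-induced Ddx58, Ifih1, Eif2ak2 and Ifit1. These were also called lower in ♂M-3, where 7.2% of all genes were. All 4 are also in the list of other interferon-stimulated genes, so they are counted in both lists. In ♂M-1 that count became 2 without ♂M-1 replicate 1 or ZM-1 replicate 1. Ddx58, which encodes the RNA sensor RIG-I, measured 907 and 1073 in ♂M-1 and 503 and 559.6 in ♂M-3, against 1499 and 1388 in ZM-1. It was 2.72-fold lower in ♂M-3 relative to ZM-1 (adjusted p = 5.13e-05). The kinase gene Eif2ak2 measured 242 and 221 in ♂M-1 and 227 and 239 in ♂M-3, against 397 and 433 in ZM-1, and was 1.79-fold lower in ♂M-1 and 1.78-fold lower in ♂M-3. In ♂M-3, Ube2e1, an E2 that is itself modified by ISG15, was higher (adjusted p = 0.0217), which did not hold without ♂M-3 replicate 2 (0.117), ZM-1 replicate 1 (0.0668) or ZM-1 replicate 2 (0.0576), and the remaining 11 genes were not called.

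**Figure D3:**
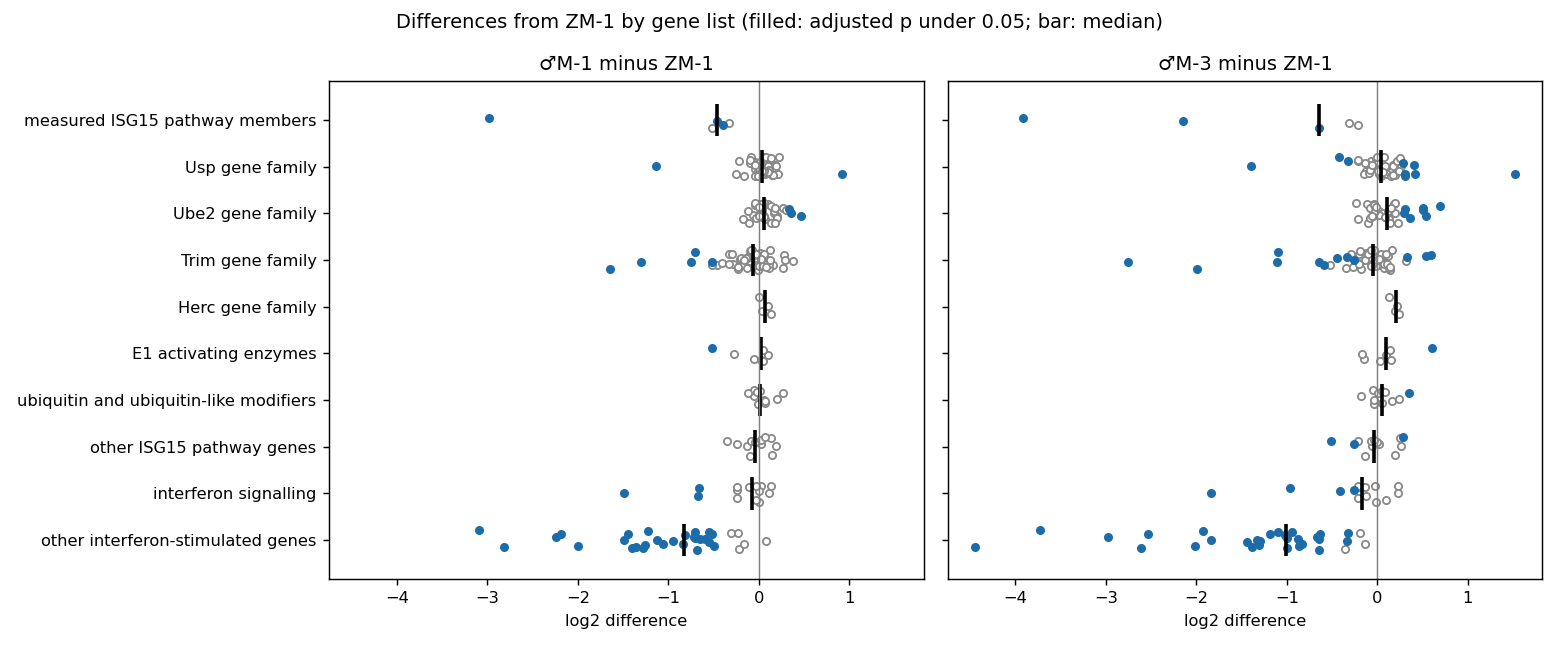
Log2 differences of single genes from ZM-1, for ♂M-1 on the left and ♂M-3 on the right, with the measured ISG15 pathway genes in the top row and the gene lists below. Each point is 1 gene, filled where the adjusted p is under 0.05, and the black bar is the median of the row. The interferon-stimulated genes lie to the left of 0 as a group, with medians of -0.83 and -1.01, while the medians of the Usp, Ube2, Trim and Herc families lie between -0.06 and 0.21.

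Of the embryonic stem cell markers, 0 were called in ♂M-1 and 3 were higher in ♂M-3 relative to ZM-1, or 1 without either ♂M-3 or either ZM-1 array. Of all genes, 8.66% were called higher in ♂M-3 relative to ZM-1, while 2.53% were lower in ♂M-1 and 7.2% in ♂M-3. Between the ♂M lines, 3.22% of all genes were higher in ♂M-1. Markers of other cell types differed between the lines too. The 10 fibroblast markers summed to 3036 to 3380 in ♂M-1 and 2060.5 to 2158 in ♂M-3, against 3451.5 to 3532 in ZM-1, with 1 of the 10 below the lower quartile and 0 at 0 in each array. Of these, 2 were lower in ♂M-1 relative to ZM-1, or 1 without ♂M-1 replicate 1 or 2 or ZM-1 replicate 1. In ♂M-3, 9 were lower relative to ZM-1, or 5 without ♂M-3 replicate 2, and 7 were higher in ♂M-1 relative to ♂M-3, or 4 without ♂M-3 replicate 2. The 9 measured blood and immune cell markers summed to 783 to 815 in ♂M-1 and 753.5 to 775 in ♂M-3, against 897 to 961 in ZM-1, with 0 below the lower quartile and 0 at 0. In that list 2 were lower in ♂M-1, or 1 without ♂M-1 replicate 1 or ZM-1 replicate 1, and 5 in ♂M-3, or 2 without ♂M-3 replicate 2 and 3 without ♂M-3 replicate 1 or either ♂M-1 array. The part of such cells in the differences of the ISG15 genes was not tested.

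The chromosomal surroundings of the 5 genes were described from the 5 measured genes on either side of each, a window chosen after the values were seen. The RefSeq annotation of GRCm38.p6 places Uba7 at chr9:107975567-107984056, Ube2l6 at chr2:84798828-84810003, Herc6 at chr6:57580992-57665136, Trim25 at chr11:88999403-89020294 and Usp18 at chr6:121245906-121270917. Around Usp18, 1 of 10 neighbours was lower in each ♂M line relative to ZM-1, the fourth gene beyond it, the protease inhibitor A2m. In ♂M-1 the A2m call did not hold without any 1 of the arrays except ♂M-1 replicate 1. Its log2 difference there was the same, at -0.60, with all arrays and without either ♂M-3 array. It was -0.37 without ♂M-1 replicate 2, and -0.55 and -0.65 without ZM-1 replicate 1 and 2. Another neighbour, the cell death gene Bid, was higher in ♂M-3 (log2 difference 0.35, adjusted p = 0.0162), a difference not called without either ♂M-3 array or ZM-1 replicate 2. Over all genes 2.53% were called lower in ♂M-1 and 7.2% in ♂M-3, and 1.89% and 8.66% higher.

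Around Uba7, 0 of 10 neighbours were lower in either line, while 1 was higher in ♂M-1 and 2 were higher in ♂M-3. Of all genes, 2.53% were called lower in ♂M-1 and 7.2% in ♂M-3, and 1.89% and 8.66% higher. Traip, the measured gene next to Uba7 and a ubiquitin ligase gene, averaged 127 ± 8.18 in ♂M-1 and 201 ± 8.45 in ♂M-3, against 98.9 ± 15.5 in ZM-1 (SD, n = 2 each), and was called in ♂M-3 (log2 difference 1.03, adjusted p = 4.72e-04). The other calls were Camkv in ♂M-1 (0.33, adjusted p = 0.0476), not called without any 1 array, and Gmppb in ♂M-3 (0.29, adjusted p = 0.0282), not called without either ♂M-3 or either ZM-1 array. Around Herc6, 0 of 10 were lower in either line and 1, Vopp1, was higher in ♂M-1 (0.52, adjusted p = 0.0115), a call that was lost without either ♂M-1 array. The Vmn1r genes among these 10 had line means between 5.47 and 11.9, below the lower quartile of the probe sets in every line. Genes at that level could hardly be called lower, so the count of 0 says little about them.

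Around Trim25, 3 of 10 neighbours were lower in ♂M-1, where 2.53% of all genes were. In ♂M-3, 3 were lower and 1 was higher, where 7.2% and 8.66% of all genes were. Those lower were Elobl, 2210409E12Rik and, next to Trim25, the diacylglycerol kinase gene Dgke. Dgke averaged 158 ± 13.7 in ♂M-1 and 153 ± 5.82 in ♂M-3, against 217 ± 2.84 in ZM-1 (SD, n = 2 each). Its log2 difference was -0.46 in ♂M-1 (adjusted p = 0.0189), not called without ♂M-1 replicate 2 or either ZM-1 array, and -0.51 in ♂M-3 (adjusted p = 0.00486). Coil, on the other side of Trim25, was higher in ♂M-3 (0.34, adjusted p = 0.0294), and of the 6 arrays ♂M-3 replicate 1 was the one that could be left out without losing that call.

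Around Ube2l6, 1 of 10 neighbours was lower in ♂M-1 relative to ZM-1, where 2.53% of all genes were. In ♂M-3, 4 of the 10 were lower, where 7.2% of all genes were. They were the complement inhibitor Serping1, the measured gene next to it on one side, Smtnl1, the one next to it on the other, and the amino acid and purine transporter genes Slc43a1 and Slc43a3. Slc43a3 averaged 178 ± 5.30 in ♂M-1 and 124 ± 7.81 in ♂M-3, against 307 ± 55.0 in ZM-1 (SD, n = 2 each). Serping1 averaged 284 ± 27.5 in ♂M-1 and 220.3 ± 3.96 in ♂M-3, against 363 ± 39.3 in ZM-1 (SD, n = 2 each). Smtnl1 averaged 103 ± 5.01 in ♂M-1 and 79.4 ± 3.54 in ♂M-3, against 117 ± 5.39 in ZM-1 (SD, n = 2 each). Slc43a1 averaged 266 ± 2.43 in ♂M-1 and 176 ± 1.29 in ♂M-3, against 216 ± 9.88 in ZM-1 (SD, n = 2 each). These log2 differences between ♂M-3 and ZM-1 ran from -0.30 to -1.29, smaller than the -2.15 of Ube2l6. The Slc43a1 call did not hold without either ♂M-3 array (adjusted p = 0.117 and 0.141), and likewise without ZM-1 replicate 1 (0.109). In ♂M-1 the Slc43a3 call did not hold without ♂M-1 replicate 1 (adjusted p = 0.0561) or 2 (0.0871).

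**Figure D4:**
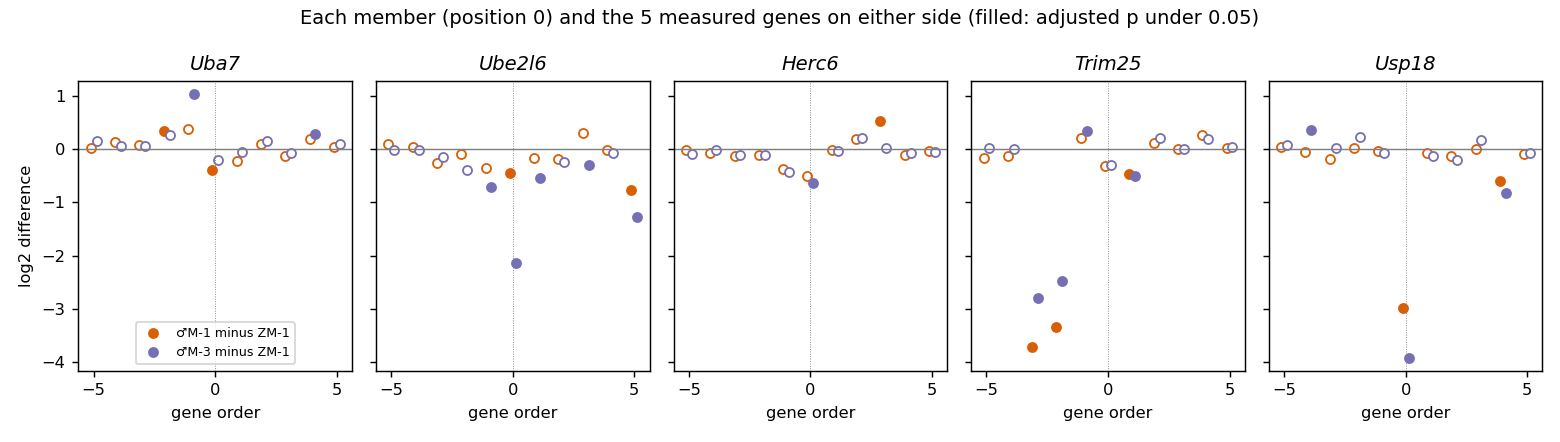
Log2 differences from ZM-1 of each measured ISG15 pathway gene (position 0) and of the 5 measured genes on either side in chromosomal order, in orange for ♂M-1 and in violet for ♂M-3. Filled points have an adjusted p under 0.05. In ♂M-3, Usp18 and Ube2l6 lie below their neighbours, at -3.92 and -2.15. In ♂M-1 Usp18 does so at -2.98, while Ube2l6, at -0.46, lies above Slc43a3, at -0.77. Trim25 lies above a pair of genes on one side of it and above Dgke on the other, in both comparisons.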

How the data were processed

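Total RNA of 3 embryonic stem cell lines, 2 repeats each, was labelled with biotin and hybridised to 1-colour arrays, per the labels' protocols. The authors deposited 1 intensity per probe set and array on a linear scale, for 35556 probe sets. GCOS 1.4 is named per the submitters' processing notes, and for background correction, summarisation and normalization the method is not given in the sources used here. Of the probe sets, 21789 had 1 gene symbol, 1621 several and 12146 none in the platform annotation, and those with 1 were reduced to 19938 genes.

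Intensities were taken as log2 with a pseudocount of 1 and fitted with limma 3.58.1 in R 4.3.3, with 1 mean per line, all 6 arrays and no filter on low values. The tests were two-sided, and the fit was tested on simulated data. No fold is given where a line's mean lay below the lower quartile of the probe sets. The members and lists were chosen with earlier results of these data known. Genes named beside the members were, per list, up to 3 with the largest difference among those called against ZM-1, plus the 5 nearest to the mean profile of the 5 measured members and the 3 nearest to Usp18. Genes outside that rule, such as chromosomal neighbours, were named after their values were seen. The 3 nearest to Isg15 could not be found, since it was not measured alone. The alternatives were other pseudocounts, normalizations, low-value filters and priors, a replicate block, the 4 arrays of the lines compared, all probe sets, and leaving out each array. Leaving out an array also lowers the residual degrees of freedom, so a call can be lost while its difference stays the same.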

Additional observations from a re-analysis of the deposited data

Results flagged for a closer look

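Ube2l6 and Usp18 differed from ZM-1 by different amounts in the ♂M lines, by the limma test of ♂M-1 against ♂M-3. For Ube2l6 the log2 difference was 1.69 (adjusted p = 5.22e-05), with both ♂M-1 arrays above both ♂M-3 arrays. For Usp18 it was 0.94 (adjusted p = 0.00121), again without overlap.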

How the results depend on the processing

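Of 234 values of single members under an alternative, 213 kept their direction and their side of the threshold, 12 were no longer called, 6 became called and 3 turned their sign. Usp18 in all 3 comparisons, and Ube2l6 in ♂M-3 against ZM-1 and in ♂M-1 against ♂M-3, were called in each of 16 settings. Not all of the settings are distinct. Leaving out either array of the line not compared gave the same fit as using only the arrays of the lines compared. The 16 settings and the 234 values therefore count that fit repeatedly, and overstate the number of separate checks. Trim25 between ♂M-1 and ♂M-3 was at 0.020 after quantile normalization, and without 1 array it ran between -0.15 and 0.12, above 0 without ♂M-1 replicate 2 or ♂M-3 replicate 1, with no call in these settings. With an intensity trend in the prior, 5 members and 1632 genes were called in ♂M-1 against ZM-1. With all 35556 probe sets tested, named or not, 1 member and 275 probe sets were called there, 2 members (not Herc6) and 2027 probe sets in ♂M-3 against ZM-1, and 2 members and 442 probe sets in ♂M-1 against ♂M-3; these are counts of probe sets and not of genes. Leaving out 1 array gave 1 to 3 members and 234 to 631 genes in ♂M-1 against ZM-1, 2 to 3 members and 1302 to 2750 genes in ♂M-3 against ZM-1, and 2 members and 357 to 1495 genes in ♂M-1 against ♂M-3, where a line left with 1 array was assumed to vary like the others. The cause was not tested.

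With the replicate number as a block, 2 members and 686 genes were called in ♂M-1 against ZM-1 (Ube2l6 at an adjusted p of 0.0526), 3 and 2769 in ♂M-3 against ZM-1, and 2 and 1071 in ♂M-1 against ♂M-3. Over all genes, deviations of same-numbered repeats correlated at 0.07, -0.10 and -0.03 between lines. Such a correlation cannot exclude a shared step that acted on part of the genes, and the labels name no batch. With 2 arrays per line, small differences near the lower quartile cannot be resolved.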

Other observations

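The probe set that lists both Isg15 and the pseudogene Gm9706 measured 34.5 and 31.2 in ♂M-1 and 30.4 and 34.0 in ♂M-3, against 44.7 and 53.3 in ZM-1. The ♂M arrays overlapped each other and lay below both ZM-1 arrays. In a fit of all 35556 probe sets its log2 difference from ZM-1 was -0.56 in ♂M-1 (adjusted p = 0.109) and -0.59 in ♂M-3 (adjusted p = 0.0467). The signal cannot be assigned to either gene.

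Near Trim25, 2 genes differed between the lines by over 2 log2 units. Elobl averaged 40.8 ± 13.4 in ♂M-1 and 76.4 ± 10.3 in ♂M-3, against 535 ± 59.6 in ZM-1 (SD, n = 2 each), and 2210409E12Rik averaged 115 ± 10.0 in ♂M-1 and 210.3 ± 10.5 in ♂M-3, against 1182 ± 26.0 in ZM-1 (SD, n = 2 each). The log2 differences from ZM-1 were -3.72 and -2.79 for Elobl and -3.35 and -2.49 for 2210409E12Rik, in ♂M-1 and ♂M-3 in that order. These genes were named after their values were seen.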
